A study of Mus musculus with 73 samples.

Results

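The Dlk1-Meg3 cluster is a group of imprinted genes on mouse chromosome 12, and 5 of its genes were read here: the maternally expressed noncoding RNAs Meg3, Rian and Mirg, and the paternally expressed genes Dlk1 and Rtl1. The members were the rows of the deposited allele-specific table that carry these 5 names, 5 of 30546 genes. Each was followed over 72 libraries in 12 groups of genotype, cross and tissue, as reads over the polymorphisms that separate the parental strains and as the maternal share of those reads. Over all libraries Meg3 had 14080 such reads, Rian 4598, Mirg 1667, Dlk1 1203 and Rtl1 78. A maternal share was read in a library only where a gene had at least 10 reads, which held in 72 of the 72 libraries for Meg3, 67 for Rian, 54 for Mirg, 25 for Dlk1 and 0 for Rtl1.

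The libraries came from single mouse embryos at embryonic day 6.5 (E6.5), dissected into epiblast, which forms the body, and extraembryonic ectoderm (ExE), which contributes to the placenta. Wild-type BDF1xCAST embryos (mother named first) had 7 libraries in each tissue, and wild-type CASTxBDF1 embryos had 4 in each. All knockouts were BDF1xCAST, with 3 epiblast and 3 ExE libraries for Dnmt1, the maintenance DNA methyltransferase, and 6 and 8 for G9a-Glp, the double disruption of the histone H3 lysine 9 methyltransferases Ehmt2 (G9a) and Ehmt1 (Glp). Rnf2, the ubiquitin ligase of Polycomb repressive complex PRC1, had 6 and 5, and Eed, a core subunit of PRC2, had 9 and 10. Per the labels' protocols, BDF1xCAST zygotes came from injection of CAST sperm into BDF1 eggs and were carried by CD-1 females, while CASTxBDF1 embryos came from natural mating, so that cross and mode of fertilisation cannot be told apart. The knockouts were made in zygotes with Cas9 mRNA and several guides. They are therefore not clones, an embryo can be mosaic, and the egg's own stores of the protein remain. The labels name no wild-type embryos injected with Cas9, so injection and knockout cannot be told apart either.

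In this cluster a differentially methylated region between Dlk1 and Meg3 carries DNA methylation on the paternal chromosome. On the unmethylated maternal chromosome a long run of noncoding transcription passes from Meg3 through Rian, a host of C/D box small nucleolar RNAs, and Mirg, a host of many microRNAs. The methylated paternal chromosome expresses Dlk1, a membrane protein of the Delta family known from fat cell and muscle differentiation, and Rtl1, a gene derived from a retrotransposon that is needed in placental capillaries. A transcript from the maternal chromosome runs antisense to Rtl1 and carries microRNAs.

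In mm10 coordinates, as the table gives them, Dlk1 spans chromosome 12 from 109452823 to 109463336 and Meg3 from 109540996 to 109571729. Rtl1 spans 109590169 to 109595403, Rian 109603945 to 109661716 and Mirg 109734981 to 109749458. Begain and Dio3, the outer genes of the cluster, start at 109032181 and end at 110281097, and 19 other rows of the table that are no member lie between these 2 genes. Promoter windows (250 bases before to 50 after the start, 300 in all, RefSeq, build GRCm38.p6) were matched for 4 of the 5 members. Those of Meg3, Dlk1 and Rian are printed because Meg3 and Rian are known as maternally expressed and Dlk1 as paternally expressed. CpG dinucleotides, the sites that Dnmt1 keeps methylated, are in capitals, as is the match to TGCCGC, the motif named for the imprint-protecting protein ZFP57 (searched on both strands, where its reverse complement is GCGGCA). The windows lie on the plus strand at chr12:109540746-109541045 (Meg3), chr12:109452573-109452872 (Dlk1) and chr12:109603695-109603994 (Rian).
Meg3: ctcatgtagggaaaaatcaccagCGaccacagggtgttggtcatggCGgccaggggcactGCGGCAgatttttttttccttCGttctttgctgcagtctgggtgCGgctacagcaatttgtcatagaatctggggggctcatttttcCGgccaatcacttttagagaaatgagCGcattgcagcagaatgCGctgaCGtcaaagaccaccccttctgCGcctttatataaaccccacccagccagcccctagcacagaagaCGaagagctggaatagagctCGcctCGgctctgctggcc
Dlk1: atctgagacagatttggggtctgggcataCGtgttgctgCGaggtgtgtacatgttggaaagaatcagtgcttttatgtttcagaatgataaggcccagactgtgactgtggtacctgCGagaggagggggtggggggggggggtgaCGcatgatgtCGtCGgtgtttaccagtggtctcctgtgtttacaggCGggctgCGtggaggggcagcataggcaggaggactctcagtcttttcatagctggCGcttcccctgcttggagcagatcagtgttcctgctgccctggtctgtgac
Rian: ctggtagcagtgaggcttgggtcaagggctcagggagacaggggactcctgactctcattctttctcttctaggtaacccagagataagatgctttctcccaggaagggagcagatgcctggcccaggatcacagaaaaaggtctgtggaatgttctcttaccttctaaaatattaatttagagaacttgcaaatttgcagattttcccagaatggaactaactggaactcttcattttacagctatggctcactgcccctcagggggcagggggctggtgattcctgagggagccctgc
The Meg3 window held 13 CpG and 1 match to TGCCGC, which 11.6% of 32851 promoter windows in the same table hold. The Dlk1 window held 9 CpG and 0 matches, the Rian window 0 and 0, and the Mirg window 10 and 0, beside a median of 7 CpG over all windows. A second RefSeq start of Meg3 held 1 CpG. Matches are letters in a window and not measured binding.

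The RefSeq table placed 58 microRNA hairpins between Begain and Dio3, with 113 mature names and 104 different seeds (bases 2 to 8). Mirg holds 10 of the hairpins, the span of Rtl1 holds 7 (6 of them on the plus strand), Rian 3 and Meg3 1. The libraries do not measure mature microRNAs. The sequences of Rtl1's span are shown because they mark the maternal antisense transcript whose reads the Rtl1 row can hold, and the pair in Mirg because it shares a seed. The seed is in capitals.
miR-127-3p (Rtl1 span): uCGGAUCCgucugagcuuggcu
miR-136-5p (Rtl1 span): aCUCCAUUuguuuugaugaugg
miR-431-5p (Rtl1 span): uGUCUUGCaggccgucaugca
miR-433-3p (Rtl1 span): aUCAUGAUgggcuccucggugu
miR-434-3p (Rtl1 span): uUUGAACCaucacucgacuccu
miR-370-3p (Rian): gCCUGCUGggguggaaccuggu
miR-453 (Mirg): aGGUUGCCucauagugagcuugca
miR-496a-5p (Mirg): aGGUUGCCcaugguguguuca

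**Figure D1:**
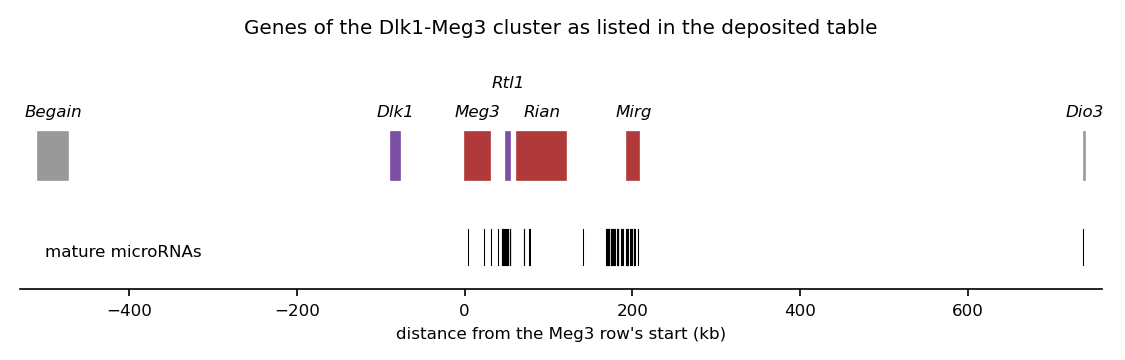
Map of the cluster, with distance from the Meg3 start in kilobases on the x axis, the maternally expressed members as red bars, the paternally expressed ones as purple bars and the outer genes Begain and Dio3 in grey, all to scale, and the starts of mature microRNAs as ticks. Dlk1 lies on one side of the Meg3 start and Rtl1, Rian and Mirg on the other, and the ticks crowd at Rtl1 and at and before Mirg.

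Reads over polymorphisms ranged from 1141414 to 17653087 per library, the most in Rnf2 epiblast (5549733 or more). Levels are given as CPM, a gene's reads per 1000000 of these reads, and were not compared between genes, since the polymorphisms a gene offers were not known. No 2 libraries held identical values. The targeted transcripts did not fall detectably in every group used here. Eed stood at 5.96% of the wild-type mean in Eed epiblast and 3.95% in ExE, below every wild-type library in all 19 libraries. Dnmt1 stood at 24.3% in Dnmt1 epiblast and 61.4% in ExE, where embryo 1 was at the wild-type level. In G9a-Glp, Ehmt1 stood at 72.2% in epiblast, which did not pass (edgeR adjusted p = 0.263), and at 50.6% in ExE. Ehmt2 stood at 24.4% in ExE. In epiblast Ehmt2 was not tested, with a mean of 3.07 CPM in both knockout and wild type and 0 of 6 libraries below the wild type. Rnf2 stood at 58.6% in Rnf2 epiblast and 77.4% in ExE, where 0 of 5 libraries lay below the wild type (edgeR adjusted p = 0.317). A cut gene can still be transcribed, so these levels do not measure the loss of protein.

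In wild-type embryos the 3 noncoding RNAs were read almost only from the maternal chromosome, in both crosses. Pooled over the 11 embryos, 1161 of 1171 Meg3 reads were maternal in epiblast (99.1%, 95% exact binomial interval 98.4% to 99.6%) and 513 of 514 in ExE (99.8%, 98.9% to 100.0%). Rian gave 218 of 218 maternal reads in epiblast and 191 of 191 in ExE, which allows a paternal share of up to 1.38% and 1.57% (3 reads of the total). Mirg gave 103 of 105 in epiblast and 130 of 130 in ExE. The 11 paternal Meg3 reads were spread over 7 libraries, the other 15 having none, and the 2 paternal Mirg reads came from different embryos. These intervals and limits cover counting error only, since reads without molecular identifiers are not independent molecules.

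The parent of origin was separated from strain with both crosses in 1 fit on the allele counts (edgeR's quasi-likelihood test, Benjamini-Hochberg adjustment over all autosomal genes tested, threshold 0.05). In epiblast 11 of 8469 genes were called in the maternal direction, 0.13%, and both members that passed the filter on reads were among them. The log2 ratio of maternal to paternal reads was 6.57 ± 0.27 (SE) for Meg3 (edgeR adjusted p = 3.33e-13) and 7.20 ± 0.63 for Rian (edgeR adjusted p = 7.46e-05). In ExE 28 of 8654 genes were called maternal, 0.324%, with Meg3 at 7.76 ± 0.39 (edgeR adjusted p = 2.03e-08), Rian at 6.99 ± 0.63 (edgeR adjusted p = 0.000152) and Mirg at 6.58 ± 0.68 (edgeR adjusted p = 0.000528). Ratios this large rest on few or no paternal reads and on the model's small added count, so the read counts above carry the result. Dlk1 and Rtl1, which did not pass the filter, gave too few wild-type reads to show a parent. Dlk1 had 35 reads over 22 libraries, 26 of them maternal (9 of 15 in epiblast and 17 of 20 in ExE), and Rtl1 had 5, all maternal.

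Meg3 was lower in ExE than in epiblast, and Rian and Mirg were not distinguishable between the tissues. In BDF1xCAST epiblast Meg3 ranged from 29.3 to 86.1 CPM (median 50.9, mean 50.6 ± 18.2 SD, n = 7) and in ExE from 8.19 to 29.7 CPM (median 15.8, mean 16.6 ± 8.1, n = 7), so the ranges touched only at their ends. The log2 difference of ExE from epiblast was -1.53 ± 0.29 (SE, edgeR adjusted p = 0.000235), in a contrast that called 28.4% of 9340 genes lower. In CASTxBDF1 the epiblast libraries had 28.2, 76.2, 18.5 and 13.8 CPM and the ExE libraries 11.9, 7.52, 15.0 and 15.4 CPM, which overlap, and the difference was -1.43 ± 0.45 (edgeR adjusted p = 0.0201, 23.0% of 9767 genes called lower). That call was lost without both libraries of embryo 1 (edgeR adjusted p = 0.0529) or of embryo 2 (0.153). CASTxBDF1 epiblast embryo 2, the highest in Meg3, also held 2000 CPM of visceral endoderm markers, against 3.98 to 25.0 CPM in the other 3, and the part of those cells in its Meg3 level was not tested. Rian in BDF1xCAST had 4.57 to 11.6 CPM in epiblast (median 9.28) and 1.49 to 11 CPM in ExE (median 7.34), a log2 difference of -0.39 ± 0.34 (edgeR adjusted p = 0.346). Mirg had 1.58 to 7.13 CPM in epiblast (median 2.90) and 1.32 to 5.84 CPM in ExE (median 3.60; exact permutation, p = 0.882). The maternal share did not differ detectably between the tissues for any of the 3 (edgeR adjusted p of 0.902 or more, 0.255% of 8635 genes called).

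The direction of the cross made no detectable difference to the level of any member. Meg3 in CASTxBDF1 differed from BDF1xCAST by -0.52 ± 0.38 log2 in epiblast (edgeR adjusted p = 0.797) and by -0.46 ± 0.37 in ExE (edgeR adjusted p = 0.693), Rian by -0.53 ± 0.38 and -0.83 ± 0.49, and Mirg by 0.07 ± 0.45 and 0.14 ± 0.47. The contrast called 1 of 9669 genes in epiblast (0.0103%) and 1.06% of 9546 in ExE.

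**Figure D2:**
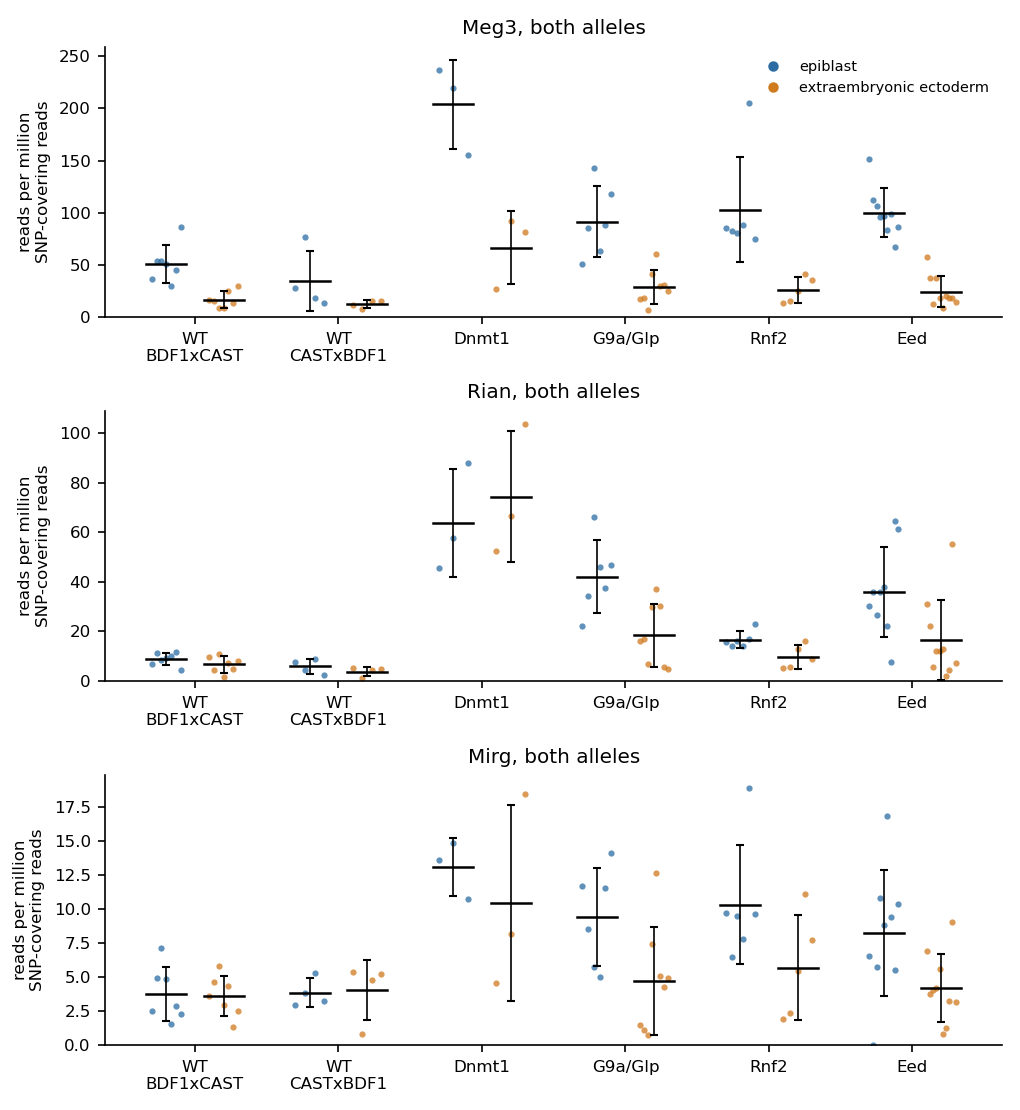
Reads of Meg3, Rian and Mirg in CPM of SNP-covering reads (y axis, both alleles) in each library, by genotype and cross, with epiblast in blue and ExE in orange; bars give the mean and whiskers the SD. All 3 Dnmt1 epiblast libraries lie above every wild-type epiblast library for each gene, and all 6 G9a-Glp and 6 Rnf2 epiblast libraries do so for Rian.

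In Dnmt1 knockout embryos the noncoding RNAs were read from both parental chromosomes and at higher levels. All knockout comparisons of a tissue share the same 7 wild-type BDF1xCAST libraries. Of the Meg3 reads in Dnmt1 epiblast, 293 of 504, 139 of 251 and 142 of 231 were maternal in embryos 1, 2 and 3 (58.1%, 55.4% and 61.5%), against 98.6% to 100% in the 7 wild-type libraries. In Dnmt1 ExE the maternal reads were 34 of 52, 105 of 157 and 134 of 189 (65.4%, 66.9% and 70.9%), against 337 of 337 in the wild type. No Dnmt1 library overlapped the wild type in either tissue. The log2 change in the maternal-to-paternal ratio was -6.86 ± 0.38 in epiblast (edgeR adjusted p = 1.48e-10) and -7.36 ± 0.62 in ExE (edgeR adjusted p = 7.59e-06). All 3 members tested in epiblast and both tested in ExE fell, where 0.531% of 7161 and 0.454% of 7708 genes were called lower.

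The paternal share of Meg3 was higher in epiblast (38.5% to 44.6%) than in ExE (29.1% to 34.6%) of the same 3 embryos, with no overlap between the tissues. This difference between the Dnmt1 tissues was not tested directly. A test of whether the change from wild type differed between the tissues did not pass the threshold (log2 -0.33 ± 0.21, edgeR adjusted p = 0.962, 0.0156% of 6405 genes called). That value also rests on the paternal Meg3 reads of the wild type, 4 in epiblast and 0 in ExE. Its sign is that of a larger change in ExE, so it cannot decide on the shares of the Dnmt1 tissues.

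Rian, downstream of Meg3, changed in the same direction. Its maternal reads in Dnmt1 epiblast were 56 of 97, 35 of 66 and 89 of 131 (57.7%, 53.0% and 67.9%), and in ExE 91 of 103, 89 of 114 and 179 of 241 (88.3%, 78.1% and 74.3%), where the wild-type libraries had 0 paternal reads in both tissues. The log2 change was -6.74 ± 0.77 in epiblast (edgeR adjusted p = 0.000231) and -5.17 ± 0.83 in ExE (edgeR adjusted p = 0.00645). The ExE call was lost when all BDF1xCAST groups entered 1 fit (edgeR adjusted p = 0.234). Mirg had 21 of 29, 10 of 17 and 10 of 16 maternal reads in epiblast (log2 -4.14 ± 0.91, edgeR adjusted p = 0.0283), a call that 5 of 7 fits without a single library lost (edgeR adjusted p up to 0.132). In ExE Mirg had 4 of 9, 5 of 14 and 26 of 43 maternal reads and did not pass the filter. With a minimum of 5 reads it changed by -6.29 (edgeR adjusted p = 0.00729). In Dnmt1 ExE the paternal share was lowest for Rian (11.7%, 21.9% and 25.7%), intermediate for Meg3 (34.6%, 33.1% and 29.1%) and highest for Mirg (55.6%, 64.3% and 39.5%) in each of the 3 embryos, an order that the epiblast did not show. This order was noticed in the values and not tested, and the Mirg shares rest on 9 to 43 reads.

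**Figure D3:**
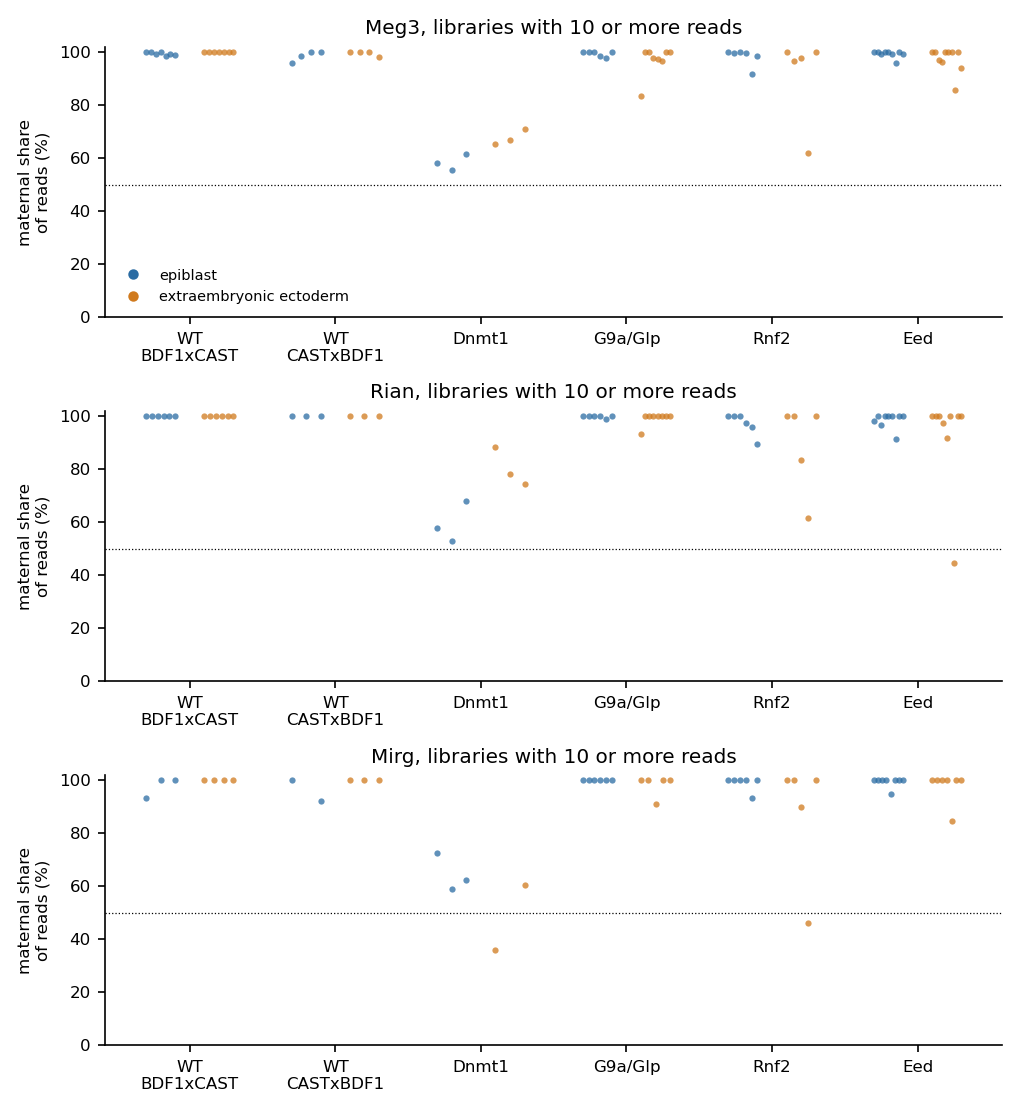
Maternal share of reads in percent (y axis) for Meg3, Rian and Mirg in each library with at least 10 reads, by genotype and cross, with epiblast in blue and ExE in orange and a dotted line at 50%. Dnmt1 libraries lie below every wild-type library, and single libraries of Rnf2 and Eed ExE lie apart from the rest of their groups.

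The level of the 3 RNAs, counted over both alleles, also rose in Dnmt1 embryos. Meg3 stood at 236, 220 and 155 CPM in Dnmt1 epiblast, all above the highest wild-type library at 86.1 CPM, and the mean of 204 ± 43 CPM (SD, n = 3) was 4.02-fold the wild-type mean. The log2 change was 1.81 ± 0.25 (edgeR adjusted p = 0.000628), and 6.92% of 10248 genes tested were called higher. Rian stood at 45.5, 57.8 and 87.9 CPM against 4.57 to 11.6 CPM, a mean 7.23-fold the wild type (log2 2.60 ± 0.29, edgeR adjusted p = 0.000222). Mirg stood at 13.6, 14.9 and 10.7 CPM against 1.58 to 7.13 CPM (log2 1.54 ± 0.46, edgeR adjusted p = 0.0389), a call that 7 of 10 fits without a single library lost (edgeR adjusted p up to 0.124). Groups that do not overlap in this way were found for 12.6% of all genes tested in this comparison.

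In Dnmt1 ExE Rian rose to 52.5, 66.6 and 104 CPM against 1.49 to 11 CPM in the wild type, a mean 11.1-fold higher (log2 3.21 ± 0.36, edgeR adjusted p = 0.000197). Meg3 stood at 26.5, 91.8 and 81.3 CPM against 8.19 to 29.7 CPM (log2 1.72 ± 0.41, edgeR adjusted p = 0.0105). Embryo 1, whose Dnmt1 transcript was at the wild-type level, overlapped the wild type, and the call was lost without embryo 2 (edgeR adjusted p = 0.0721) or embryo 3 (0.071). That library held the highest paternal Meg3 share of the 3 (34.6%), and its Rian level (52.5 CPM) lay above every wild-type library. The part of its Dnmt1 transcript in its Meg3 level was not tested. Mirg stood at 4.59, 8.18 and 18.5 CPM against 1.32 to 5.84 CPM and did not pass the threshold (log2 1.29 ± 0.46, edgeR adjusted p = 0.0659). In this comparison 8.54% of 9749 genes were called higher, and 18.6% had every knockout library above every wild-type one.

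Read by allele, the rise in Dnmt1 embryos was not from the paternal chromosome alone. This split was chosen after the values were seen, and covers 48 exact two-sided permutation tests of mean CPM (3 genes, 2 alleles, 2 tissues, 4 knockouts) with Benjamini-Hochberg adjustment over all of them. Maternal Rian was 4.41-fold the wild type in epiblast (38.9 ± 18.2 against 8.82 ± 2.50 CPM, SD) and 8.75-fold in ExE (58.5 ± 16.3 against 6.68 ± 3.29 CPM), above every wild-type library in 3 of 3 embryos in both tissues (exact permutation, adjusted p = 0.025 each, and p = 0.00833 is the smallest that 3 against 7 libraries can give). Maternal Meg3 was 2.35-fold in epiblast (adjusted p = 0.025 by the same permutation test) and 2.74-fold in ExE (permutation adjusted p = 0.0604), and maternal Mirg 2.28-fold (permutation adjusted p = 0.0471) and 1.49-fold (permutation adjusted p = 0.596). Paternal reads rose in all 6 cases (permutation adjusted p = 0.025 each): paternal Meg3 reached 85.6 ± 22.4 CPM in epiblast and 21.1 ± 10.9 CPM in ExE, paternal Rian 24.9 ± 4.9 and 15.8 ± 10.3 CPM, and paternal Mirg 4.64 ± 1.30 and 5.04 ± 2.39 CPM. In Dnmt1 epiblast both alleles of each of the 3 genes were called, and the maternal allele remained the higher in the means. Reads of all autosomal genes in these 3 libraries were 56.9% to 57.5% maternal, so a higher maternal mean alone does not show a maternal excess. The maternal shares of Meg3 (55.4% to 61.5%) and Rian (53.0% to 67.9%) spanned that level. Those of Mirg (58.8% to 72.4%) lay above it, on 16 to 29 reads per library.

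**Figure D4:**
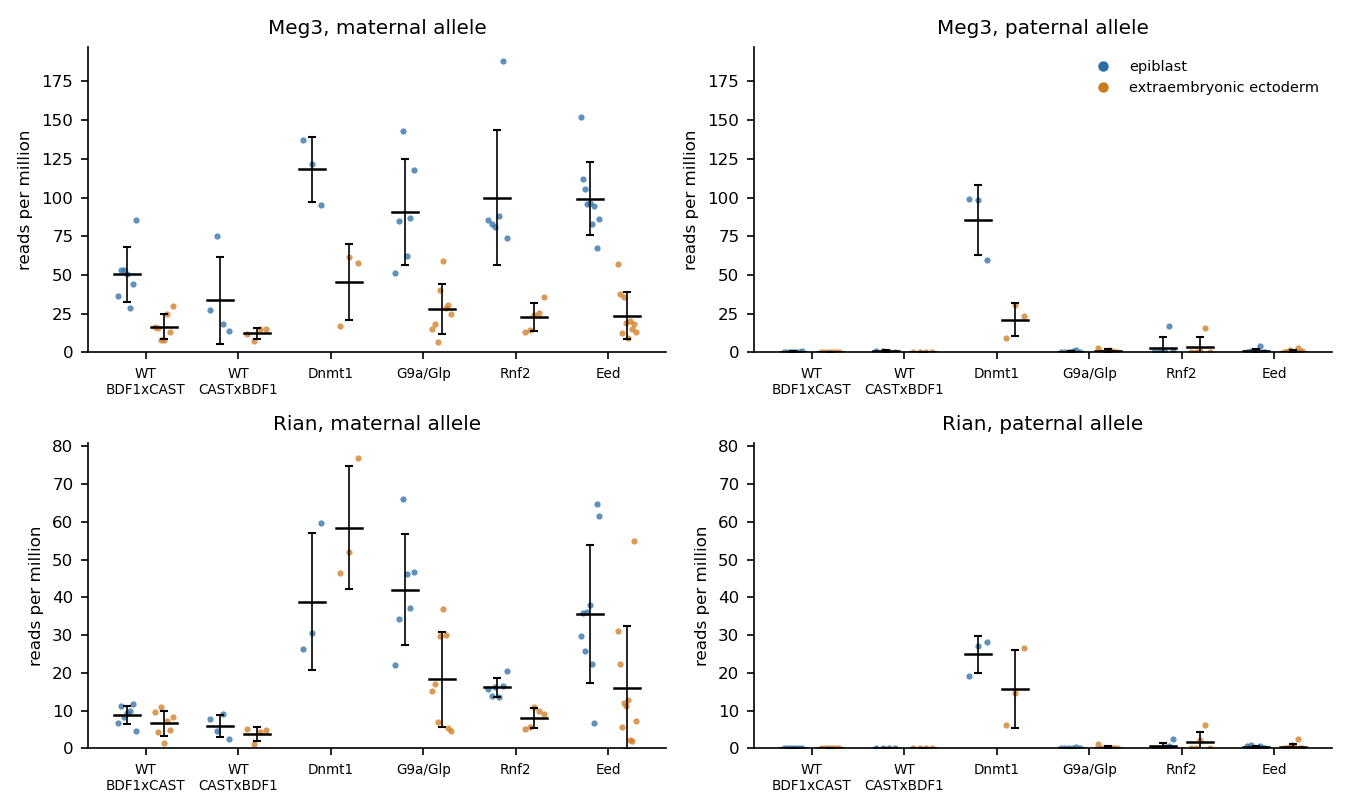
Maternal and paternal reads of Meg3 and Rian in CPM of SNP-covering reads (y axis), as group means with SD whiskers (not drawn below 0) and 1 point per library, by genotype, cross and tissue, with epiblast in blue and ExE in orange. In Dnmt1 both alleles are above the wild type for Rian in both tissues, and in epiblast of the other knockouts the maternal allele alone is called higher.

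In the other 3 knockouts Meg3 and Rian also rose in epiblast, Mirg rose in G9a-Glp and Rnf2, and most of the reads were maternal. In G9a-Glp epiblast Rian ranged from 22.2 to 66.1 CPM (median 41.7, n = 6), with all 6 libraries above the highest wild-type library at 11.6 CPM, and the mean was 4.77-fold the wild type (log2 2.12 ± 0.25, edgeR adjusted p = 9.0e-06). Meg3 ranged from 51.2 to 143 CPM (median 86.7), with 3 of 6 above the wild type (log2 0.78 ± 0.24, edgeR adjusted p = 0.0181), and Mirg from 5.03 to 14.1 CPM (median 10.04), with 4 of 6 above (log2 1.21 ± 0.38, edgeR adjusted p = 0.019). In this comparison 19.6% of 9562 genes were called higher, and 10.5% had all knockout libraries above all wild-type ones. Without embryos 2 and 7, whose targeted transcripts were at or above the wild-type mean, Rian kept its call (edgeR adjusted p = 0.000123) and Meg3 (0.0667) and Mirg (0.0808) lost theirs.

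In Eed epiblast Rian ranged from 7.49 to 64.6 CPM (median 35.9, n = 9), 8 of the 9 libraries lay above the wild type, and the mean was 4.06-fold higher (log2 1.78 ± 0.33, edgeR adjusted p = 0.000382). Meg3 ranged from 67.4 to 152 CPM (median 96.5), with 7 of 9 above (log2 0.80 ± 0.18, edgeR adjusted p = 0.00191). Mirg ranged from 0 to 16.9 CPM (median 8.85) and did not pass the threshold (log2 0.93 ± 0.44, edgeR adjusted p = 0.106). Here 18.0% of 9820 genes were called higher. In Rnf2 epiblast Rian had 13.9 to 23.0 CPM (median 16.0, n = 6), above every wild-type library in 6 of 6 (log2 0.87 ± 0.24, edgeR adjusted p = 0.0117), a state reached by 8.58% of 10134 genes. Meg3 had 75.0 to 205 CPM (median 84.2; log2 1.02 ± 0.25, edgeR adjusted p = 0.00668), where 5 libraries lay close together (82.5 ± 5.0 CPM) and embryo 6 stood apart at 205 CPM. Mirg had 6.46 to 18.9 CPM (median 9.56; log2 1.40 ± 0.36, edgeR adjusted p = 0.00851). In Rnf2 epiblast 18.3% of genes were called higher.

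By allele, the calls in epiblast of these knockouts were on the maternal chromosome. Maternal Rian was 4.77-fold the wild type in G9a-Glp epiblast, 4.04-fold in Eed and 1.83-fold in Rnf2 (exact permutation, adjusted p = 0.00932, 0.0168 and 0.00932). Maternal Meg3 was 1.81-fold, 1.97-fold and 1.98-fold (permutation adjusted p = 0.0482, 0.00932 and 0.0233), and maternal Mirg 2.55-fold, 2.20-fold and 2.74-fold (permutation adjusted p = 0.025, 0.0604 and 0.0168). No paternal level was called higher in these 3 knockouts in either tissue, by the same 48 permutation tests. The smallest unadjusted value among them was p = 0.0455, for Meg3 in Rnf2 ExE, also by the exact permutation test.

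In ExE fewer of these changes passed. Rian rose in G9a-Glp ExE (4.67 to 36.9 CPM, median 16.6, 5 of 8 above the wild type; log2 1.36 ± 0.44, edgeR adjusted p = 0.0431), in a comparison that called 8.73% of 9228 genes higher. That call was lost in 9 of 15 fits that left out a single library (edgeR adjusted p up to 0.0888) and with all BDF1xCAST groups in 1 fit (0.0552). Meg3 in G9a-Glp ExE changed by 0.72 ± 0.37 (edgeR adjusted p = 0.193) and Mirg by 0.36 ± 0.47 (edgeR adjusted p = 0.639). In Eed ExE Rian ranged from 2.18 to 55.0 CPM (log2 1.06 ± 0.49, edgeR adjusted p = 0.0869), Meg3 changed by 0.34 ± 0.34 (edgeR adjusted p = 0.441) and Mirg by 0.03 ± 0.37 (edgeR adjusted p = 0.954). Rnf2 ExE gave log2 changes of 0.57 ± 0.36 (Meg3), 0.46 ± 0.39 (Rian) and 0.60 ± 0.44 (Mirg), with edgeR adjusted p of 0.263, 0.42 and 0.346. Whether the changes differ between the tissues was tested for each knockout, and no member passed (edgeR adjusted p of 0.219 or more, where 0.282% of genes were called for Dnmt1, 6.83% for G9a-Glp, 6.82% for Rnf2 and 15.9% for Eed), so a call in epiblast beside none in ExE does not show a difference between them.

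Markers of cell state moved with these comparisons. The summed level of 6 epiblast markers was 474 to 948 CPM in wild-type BDF1xCAST epiblast (median 560) and higher in the knockouts, at 912 to 1180 CPM in Dnmt1, 1325 to 1471 in G9a-Glp, 915 to 1171 in Rnf2 and 927 to 1619 in Eed. In ExE libraries the same sum was 142 to 317 CPM in wild-type BDF1xCAST and 343 to 663 CPM over the 4 knockouts, while wild-type CASTxBDF1, at 145 to 518 CPM, overlapped the knockouts. Pou5f1, a defining marker of the epiblast, was read poorly in this table. It was at 0 in all wild-type ExE libraries and at no more than 1.62 CPM in the wild-type epiblast, so the tissue labels rest on the other markers. The 5 mesoderm markers in the table had medians of 436 CPM in wild-type epiblast, 519 in Dnmt1, 78.5 in G9a-Glp, 55.4 in Rnf2 and 110 in Eed. Maternal tissue markers summed to 0 to 0.91 CPM in ExE libraries and 0.69 to 27.5 CPM in epiblast libraries of BDF1xCAST. The part of these differences in the levels of Meg3, Rian and Mirg was not tested. In bulk samples fewer cells of a type and less RNA per cell cannot be told apart.

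The maternal share of Meg3, Rian and Mirg in G9a-Glp, Rnf2 and Eed did not pass the test in any of the 18 comparisons (edgeR adjusted p of 0.277 or more). The share of genes called in either direction was 1.79% in epiblast and 1.1% in ExE for G9a-Glp, 0.686% and 0.911% when Rnf2 was targeted, and 1.06% and 2.65% for Eed. At an unadjusted p under 0.05, 2 of the 18 were found (Meg3 in G9a-Glp ExE, p = 0.0161, and in Eed ExE, p = 0.0231). Meg3 had no paternal read in 23 of 44 of these libraries, Rian in 30 of 43 and Mirg in 31 of 37 (libraries with at least 10 reads), and the median paternal share was 0 for all 3. The paternal share lay above every wild-type library (3.95% for Meg3, 0% for Rian, 7.69% for Mirg) in 6, 13 and 4 libraries. For Rian these 13 are all of the 43 libraries that held a paternal read. Group medians were 16 to 23 Rian reads per library in the wild type and 35 to 134 in these knockouts. A low paternal share could thus be missed in a single wild-type library. Pooled over the wild type, 0 of 409 Rian reads were paternal. The pooled paternal share of Rian in these knockouts ran from 0.163% in G9a-Glp epiblast to 16.8% in Rnf2 ExE. The part of read depth in this difference was not tested. The share of all genes with a paternal share above every wild-type library was not counted.

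Paternal reads were concentrated in single embryos. The deposited ratio is rounded, and in Rnf2 epiblast embryo 1, where all 1511 Meg3 reads were taken as maternal, it allows up to 7 paternal reads. In Rnf2 ExE embryo 6 carried 95.5% of the group's paternal Meg3 reads, with 207 of 335 maternal (61.8%, 56.4% to 67.0%), beside 6 paternal reads of 580 in the other 4 embryos. Rian in that library was 82 of 133 maternal (61.7%) and Mirg 42 of 91 (46.2%). Its Rnf2 transcript was the highest of the group at 62.7 CPM (wild-type mean 45.5 CPM), and its Dnmt1 transcript, at 58.6 CPM, lay within the wild-type range of 35.7 to 62.2 CPM. In the epiblast of the same embryo Meg3 was 1044 of 1137 maternal (91.8%, 90.1% to 93.3%) at 205 CPM, the highest level of its group, and Mirg was 98 of 105. The Eed epiblast library labelled embryo 8 had 291 of 303 maternal Meg3 reads (96.0%). The Eed ExE library labelled embryo 8 had 61 of 71 (85.9%), with Rian at 8 of 18 and Mirg at 11 of 13. Whether these 2 libraries come from 1 embryo is in doubt, since their titles carry different numbers. G9a-Glp embryo 1 had 40 of 48 maternal Meg3 reads in ExE (83.3%) and 41 of 44 of Rian, and 136 of 136 of Meg3 in its epiblast. Rnf2 embryo 8, present as epiblast, had 145 of 162 maternal Rian reads (89.5%) and 520 of 528 of Meg3. Without embryo 6, the Meg3 change in Rnf2 ExE was -2.84 (edgeR adjusted p = 0.672), against -5.49 ± 2.67 with it (edgeR adjusted p = 0.528).

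Dlk1, known as a paternally expressed gene, rose in ExE of both Polycomb knockouts. In wild-type ExE the 7 libraries had 0 to 1.12 CPM (median 0.33, 8 reads in all). In Eed ExE the 10 libraries had 1.99 to 15.8 CPM (median 8.45), all above the wild type, a state reached by 6.58% of 10058 genes. The mean was 19.8-fold higher (log2 4.00 ± 0.56, edgeR adjusted p = 1.03e-05, 22.7% of genes called higher). Dlk1 passed the filter there through the Eed libraries, 8 of 10 with at least 10 reads against 0 of 7 in the wild type, and a fit with no filter on low counts called it too. In Rnf2 ExE the 5 libraries had 16.4, 2.73, 7.58, 30.0 and 8.00 CPM, again all above the wild type (8.57% of 9506 genes). The mean of 12.9 ± 10.7 CPM (SD, n = 5) was 31.7-fold the wild-type mean, which rests on those 8 reads. This gene did not pass the filter there, and an exact permutation test gave an adjusted p = 0.029 over 23 tests of members below a filter (p = 0.00126, the smallest 5 against 7 libraries can give). Summed ExE markers had medians of 393 CPM in Eed ExE and 549 CPM in Rnf2 ExE, against 685 CPM in the wild type. Visceral endoderm markers held 22.0 to 57.9 CPM in Eed ExE, 18.9 to 33.0 in Rnf2 ExE and 19.6 to 135 in G9a-Glp ExE, against 7.90 to 20.3 CPM. The part of these cells in the Dlk1 levels was not tested.

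In epiblast the Dlk1 comparison turns on a wild-type library. Of the 7, embryo 8 had 12 reads (9.15 CPM) and the other 6 had 0.42 CPM or less. Rnf2 epiblast had 2.87 to 7.53 CPM (median 5.78, n = 6; log2 2.49 ± 0.83, edgeR adjusted p = 0.0308), none above that library. Dlk1 passed the filter through the Rnf2 libraries (6 of 6 with at least 10 reads, against 1 of 7), and a fit with no filter on low counts called it too. The call was lost in 8 of 13 fits without a single library (edgeR adjusted p up to 0.0698), and without wild-type embryo 8 the change was 5.15 (edgeR adjusted p = 2.28e-05). Embryo 8 also had the highest mesoderm marker sum of the wild-type epiblast (1190 CPM) and 432 CPM of visceral endoderm markers beside a median of 4.72 CPM. The part of these cells in its Dlk1 reads was not tested. Eed epiblast had 2.52 to 14.2 CPM (median 3.25, n = 9) and did not pass (exact permutation, adjusted p = 0.319), while a fit with no filter on low counts called it (log2 2.07, edgeR adjusted p = 0.0386). Over both tissues the Dnmt1 and G9a-Glp groups held 34 Dlk1 reads in 20 libraries, too few to read. The change in ExE against that in epiblast was 1.97 ± 1.08 for Eed (edgeR adjusted p = 0.219) and 2.39 ± 1.25 for Rnf2 (edgeR adjusted p = 0.288).

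The Dlk1 reads of the Polycomb knockouts came from both parental chromosomes, with more from the maternal in each group's pooled reads. Over all autosomal genes, 56.4% to 58.5% of reads in these libraries were maternal, beside 41.9% to 43.9% in wild-type CASTxBDF1 libraries. A share above 50% is therefore not a maternal excess by itself. Of the pooled intervals that follow, those of Rnf2 reach this range and those of Eed lie above it. They cover counting error of pooled reads and not the spread between embryos. They therefore do not show a maternal excess in Eed, which was not tested over embryos. In Rnf2 epiblast 172 of 293 reads were maternal (58.7%, 52.8% to 64.4%), in Rnf2 ExE 310 of 505 (61.4%, 57.0% to 65.7%), in Eed epiblast 75 of 107 (70.1%, 60.5% to 78.6%) and in Eed ExE 166 of 229 (72.5%, 66.2% to 78.2%). Single embryos varied widely. Maternal reads in Rnf2 ExE were 136 of 161, 14 of 28, 10 of 14, 108 of 246 and 42 of 56, and the shares in Eed ExE libraries with at least 10 reads ran from 44.4% to 89.5% (8 libraries). Over all 25 libraries with at least 10 Dlk1 reads, 23 of them from Rnf2 and Eed, the maternal share ran from 30.8% to 89.5% and was above 50% in 18. That count was not set against the lean of all autosomal genes. The change in parental share was not tested, since Dlk1 did not pass the filter on reads there: wild-type BDF1xCAST held 14 reads in epiblast and 8 in ExE. In the Rnf2 ExE embryo 6 that carried paternal Meg3 reads, Dlk1 was at its highest level (30.0 CPM) and 138 of 246 reads were paternal.

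**Figure D5:**
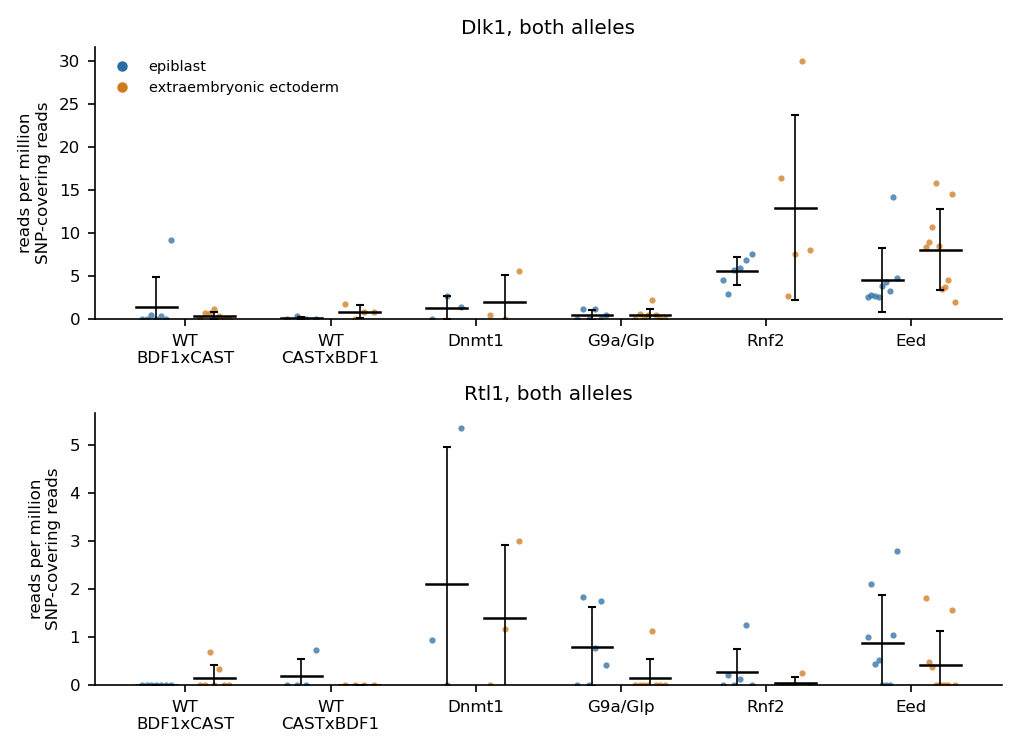
Reads of Dlk1 and Rtl1 in CPM of SNP-covering reads (y axis, both alleles) in each library, with group means and SD whiskers, which are not drawn below 0. All Rnf2 and Eed ExE libraries lie above the wild-type BDF1xCAST ExE libraries for Dlk1, and no library has more than 8 reads of Rtl1.

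Rtl1 had too few reads in every library, at most 8, and 46 of 72 libraries had none. Outside the Dnmt1 groups all 59 reads were maternal, the opposite of the parent from which this gene is known to be expressed. In the Dnmt1 groups 12 of 19 were paternal, all 12 from embryo 3 (1 of 8 maternal in epiblast and 2 of 7 in ExE). The library kit does not mark strand, and the maternal antisense transcript with its microRNA hairpins covers the same span, so reads from Rtl1 and from its antisense partner cannot be told apart. No change in level passed (exact permutation, adjusted p of 0.228 or more over the 23 tests), although a fit with no filter on low counts called it in Eed epiblast (edgeR adjusted p = 0.0273), against a wild type with 0 reads. Mean levels were 2.10 CPM in Dnmt1 epiblast, 0.88 in Eed and 0.80 in G9a-Glp, where wild-type BDF1xCAST epiblast had 0 reads.

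None of the 19 other rows between Begain and Dio3 passed the filter on reads in any comparison. AF357355, a small nucleolar RNA gene within Rian, had 138 reads over all libraries, 132 of them maternal, and reads of that row and of Rian may overlap. Mir453, a hairpin within Mirg, had 31 reads, 30 maternal. Gm34081, which spans most of the stretch from Dlk1 to Meg3, had 106 reads, 74 maternal. Begain had 164 reads (78 maternal) and Dio3 116 (48 maternal), so the outer genes of the cluster did not show the maternal excess of the noncoding RNAs in these sums. The genes listed as flanking or bounding the cluster (16 listed, 14 in the table) gave no call on parental share in any of the 8 knockout comparisons (edgeR), with 5 to 9 tested in each, and 1 of their 62 tests had an unadjusted p under 0.05. The comparisons of total reads called 13.9%, 34.6%, 31.1% and 36.9% of genes in either direction in epiblast of Dnmt1, G9a-Glp, Rnf2 and Eed, and 18.5%, 15.1%, 22.2% and 40.8% in ExE. Of the flanking genes, the calls were 0 higher and 1 lower of 10 tested in Dnmt1 epiblast, 0 and 2 of 9 in Dnmt1 ExE, 1 and 1 of 8 in G9a-Glp epiblast, 0 and 1 of 8 in G9a-Glp ExE, 0 and 2 of 10 in Rnf2 epiblast, 1 and 0 of 7 in its ExE, 1 and 3 of 8 in Eed epiblast, and 3 and 2 of 9 in its ExE. Yy1, a zinc finger factor that lies beyond Begain, fell by 0.91 in Dnmt1 epiblast (edgeR adjusted p = 0.0397), by 1.23 in Dnmt1 ExE (edgeR adjusted p = 0.0275), by 0.75 in G9a-Glp epiblast, by 0.69 in Rnf2 epiblast and by 0.75 in Eed epiblast on the log2 scale. Degs2, a sphingolipid desaturase, rose by 2.69 in Eed ExE (edgeR adjusted p = 0.000229).

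Of genes listed as tied to imprint protection (14 listed, all in the table), some rose and some fell. The list also holds Dnmt3a, Dnmt3b and Dnmt3l, of de novo DNA methylation, and Tet1, Tet2 and Tet3, which act in demethylation. In Dnmt1 epiblast only Dnmt1 itself was called, 1 of 12 tested. In Rnf2 epiblast 2 of 12 rose and 5 fell, and in Eed ExE 3 of 12 rose and 5 fell (list medians -0.43 and -0.29, all-gene medians 0.00 and 0.02). Of all genes, 18.3% were called higher and 31.1% in either direction in Rnf2 epiblast, and 22.7% and 40.8% in Eed ExE, so that the members that rose were near the share of all genes. For the members that fell, the share of all genes is the difference between the 2 values of a comparison. The 5 of 12 that fell lay above that share in each comparison. Whether the list differs from all genes was not tested. Tet1 and Tet3 were among those that fell in Rnf2 epiblast, and in Eed ExE Tet1 fell and Tet3 rose. Dppa3, which shields imprints in the zygote, rose by 4.19 in Rnf2 epiblast (edgeR adjusted p = 1.24e-05) and by 4.05 in Eed ExE (edgeR adjusted p = 2.08e-05). Trim28, the corepressor that ZFP57 recruits, fell by 1.00 in Rnf2 ExE (edgeR adjusted p = 0.00362) and by 0.91 in Eed ExE (edgeR adjusted p = 0.000361). It also fell by 0.80 in G9a-Glp ExE (edgeR adjusted p = 0.00916). Of the Notch pathway genes (15 listed, 13 in the table), to which Dlk1 is related as a noncanonical ligand, 4 of 5 tested rose in Eed ExE, with a list median of 0.78 beside 0.02 over all genes, of which 22.7% were called higher. They were the ligands Dll3 (log2 1.08 ± 0.32) and Jag2 (1.38 ± 0.43), the receptor Notch2 (0.78 ± 0.26) and the transcription factor Rbpj (0.58 ± 0.22). Elsewhere, genes of this list were called in the opposite direction. Notch2 fell in Eed epiblast (-0.90 ± 0.35, edgeR adjusted p = 0.0484, 36.9% of genes called in either direction). Dll3 fell in G9a-Glp ExE (-1.085 ± 0.36, edgeR adjusted p = 0.0474, 15.1% of genes called in either direction). In Rnf2 epiblast, where 31.1% of all genes were called in either direction and 18.3% higher, 2 of 5 were called. These were Jag1 (-1.61 ± 0.56) and Rbpj (-0.63 ± 0.18), which fell, and in Dnmt1 none was called in either tissue.

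H19, the maternally expressed noncoding RNA of another paternally methylated locus, served for comparison. Its maternal share fell in Dnmt1 ExE (log2 -6.37 ± 0.73, edgeR adjusted p = 1.95e-05) to 54.9% of pooled reads from 98.8%, and in Dnmt1 epiblast (-1.93 ± 0.43, edgeR adjusted p = 0.0318) to 52.9% from 83.5%. It also fell past the threshold in Rnf2 ExE (-4.56 ± 0.74, edgeR adjusted p = 0.00278, 79.5% pooled) and Eed ExE (-4.18 ± 0.82, edgeR adjusted p = 0.00261, 80.7% pooled). Meg3 did not pass in those 2 comparisons, and the difference between H19 and Meg3 was not tested. At these read numbers many H19 values rest on the rounded ratio.

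The pattern of Meg3 over the 12 group means (log2(CPM + 1)) was most like that of Fam222b (Pearson r = 0.98), Tuba1b (0.976), Gm41396 (0.976), Trp53 (0.964) and Itfg2 (0.961), among 9272 genes that reached 10 CPM as a mean in some group. Gm41396 and Tuba1b lie on the same chromosome with near-equal values and may share reads. For Rian the nearest were Cpsf4 (r = 0.98), Lsr (0.962), Exoc1 (0.953), Depdc1b (0.947) and Nelfcd (0.945). Meg3 followed Rian at r = 0.819 and Mirg at 0.883, lower than any of these. These are descriptions over 12 means that share embryos and depth. Across embryos of a group the levels of Meg3 and Rian showed no relation that held in any of the 7 groups with at least 6 libraries. The strongest was in G9a-Glp epiblast (n = 6, Pearson r = 0.836, permutation p = 0.0319, adjusted 0.113; Spearman rho 0.8286, permutation p = 0.0583, adjusted 0.408), which fell to r = 0.142 without the 2 libraries farthest from the median of Meg3. In wild-type epiblast r was -0.569 (n = 7, permutation p = 0.183).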

How the data were processed

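SMART-Seq v4 and Nextera XT libraries, 72 of the 73 samples, were analysed, and the bisulfite sample was not analysed here. The deposited table gives, per gene and library, a count of reads over strain polymorphisms (total reads, not normalised), an allelic ratio (CAST share less 0.5, to 2 decimals) and an allelic score, which from the values is the signed -log10 of a binomial p, 0 under 10 reads and limited to 300. Per the submitters' processing notes the tools were STAR 2.5.0 and HTSeq and the build mm10; strand and overlap handling are not given in the sources used here. Allele counts were recovered as the whole number that gives the deposited ratio and score, which matched 712029 of 712130 scored values (99.986%, tolerance 0.0015 on the -log10 scale). Scores at the limit leave the rounded ratio alone (1 of 218 member values, and many H19 values).

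Groups came from the labels, and an embryo is the replicate. Total reads were tested with edgeR 4.0.16 (quasi-likelihood, TMM, filterByExpr). Allele counts were tested with the same model and 1 term per library, on autosomal genes for which each of the groups compared held 3 or more libraries with 10 reads. The Benjamini-Hochberg adjustment covered every gene tested, and the threshold was 0.05. Members below a filter and, after the values were seen, single alleles had exact two-sided permutation tests (scipy 1.17.1). Alternatives were limma 3.58.1, DESeq2 1.42.0 (R 4.3.3), other minimums and scalings, the replicate block, 1 fit for all groups and leaving out each library; fits without libraries whose targeted transcript did not fall were chosen after seeing the data. On simulated data 78% of 191 log2 changes of 2 were recovered for total reads in Dnmt1 epiblast (9915 genes), 100% in Eed epiblast (9625 genes), and 100% of log2 changes of 4 in allele counts (7161 and 9040 genes). The simulated allele counts started from equal alleles in the wild type. Their recovery therefore does not cover genes read almost only from 1 allele, such as Meg3, Rian and Mirg. Intervals are exact 95% binomial (Clopper-Pearson).

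The members, lists, markers and tests were chosen with earlier results of these data known. Named genes are the members, the targeted genes, H19, flanking, interval and list genes that passed a test, and the 5 genes most like Meg3 and Rian over 12 group means; the interval rows and which called list genes to print were picked after their values were seen. Embryo numbers do not pair genotypes (median correlation of same-numbered libraries -0.156 to 0.075). The 2 tissues of 1 wild-type embryo are paired by the labels (0.0201 to 0.47 in BDF1xCAST, 0.0692 to 0.378 in CASTxBDF1), and the block kept the Meg3 calls between tissues (edgeR adjusted p = 0.000119 and 0.0398). For Eed embryos 8 to 10 the labels' embryo entry, used here, and the number that opens the titles pair different epiblast and ExE libraries; the sex entry is the same in both libraries of an embryo by the first and differs in some pairs by the second.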

Additional observations from a re-analysis of the deposited data

Results flagged for a closer look

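Of 59 groups and measures tested, 22 held a library whose gap to the nearest other exceeded Dixon's 95% critical value for the group's range, where chance gives about 1 in 20. Shares that sit at 100% in most libraries make such gaps easy to reach. Most of the values fell in a few embryos.

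Rnf2 embryo 6 stood apart in both tissues. In epiblast it had 204.9 CPM of Meg3 (91.82% maternal) and 18.92 CPM of Mirg (93.33% maternal), and in ExE its maternal share was 61.79% for Meg3 and 46.15% for Mirg. The Eed epiblast library labelled embryo 8 had 96.04% maternal Meg3 and 91.3% maternal Rian reads, the lowest of its group. The Eed ExE library labelled embryo 8 was also the lowest of its group, with Meg3 at 85.92%, Rian at 44.44% and Mirg at 84.62%, but titles and embryo labels pair these libraries differently. G9a-Glp embryo 1 was lowest in ExE with Meg3 at 83.33% and Rian at 93.18%.

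The others were single values. Wild-type BDF1xCAST epiblast embryo 8 had 86.14 CPM of Meg3 and 9.147 CPM of Dlk1. Wild-type CASTxBDF1 ExE embryo 4 had 98.21% maternal Meg3 reads, and embryo 2 had 0.8062 CPM of Mirg. G9a-Glp epiblast embryo 5 had 99.07% maternal Rian reads, and G9a-Glp ExE embryo 8 had 90.91% of Mirg. Rnf2 epiblast embryo 8 had 23.01 CPM of Rian, Eed epiblast embryo 6 had 94.92% maternal Mirg reads, and Eed epiblast embryo 9 had 14.17 CPM of Dlk1. The shares of Mirg and of Rian in ExE rest on 11 to 105 reads.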

How the results depend on the processing

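Counts below are of members called by edgeR. Under a minimum of 20 reads 1 member was tested for parental bias in each tissue, and it was called. Leaving out single libraries gave 1 to 2 members in epiblast and 1 to 3 in ExE, with every member tested called and the rest below the filter. Elsewhere the second number is the count called in the report. All groups in 1 fit left 1 of 2 on the parental share in Dnmt1 ExE and 0 of 1 on total reads in G9a-Glp ExE. Without the libraries whose targeted transcript did not fall, 1 of 3 was called in G9a-Glp epiblast. With no filter on low counts 1 member was called in Rnf2 ExE (0 otherwise) and 4 in Eed epiblast (2 otherwise). The replicate block left 0 of 4 in Rnf2 epiblast, where numbers do not pair the embryos. Leaving out single libraries gave 1 to 3 calls of total reads in Dnmt1 ExE, 0 to 1 in G9a-Glp ExE, 0 to 1 in Rnf2 ExE, 1 to 2 in Eed ExE and, without both libraries of an embryo, 0 to 1 for CASTxBDF1 tissues. The causes were not tested, apart from fewer reads under a stricter minimum.

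Directions that reversed were all of changes that no fit called. On the parental share these were Meg3 in G9a-Glp epiblast (-0.01421 in 1 fit, -0.4913 without the libraries whose target did not fall, -0.3796 to 1.288 without single libraries) and, by limma, Rian (0.443) and Mirg (0.0479) in G9a-Glp ExE, Meg3 (1.181) and Rian (0.6464) in Rnf2 epiblast, Meg3 (0.7247) and Rian (0.8628) in Eed epiblast, and Meg3 between wild-type tissues (-0.1868). The replicate block turned Mirg in Eed epiblast (-0.07237, parental share), and for total reads Mirg in Eed ExE (-0.3164), between CASTxBDF1 tissues (-0.08229) and between crosses (-0.2744 in epiblast, -0.1733 in ExE), and Meg3 between crosses in ExE (0.07775). Without single libraries the parental-share change ran from -1.134 to 1.334 (Rian) and -1.133 to 0.389 (Mirg) in G9a-Glp ExE, -1.514 to 0.8549 (Meg3, Rnf2 epiblast), -0.7154 to 0.881 (Meg3) and -0.9379 to 0.04682 (Rian) in Eed epiblast, and -1.458 to 0.2221 (Mirg, Eed ExE). For total reads of Mirg it ran from -0.03539 to 0.5197 (G9a-Glp ExE), -0.131 to 0.178 (Eed ExE), -0.265 to 0.34 (CASTxBDF1 tissues, without single embryos), and -0.132 to 0.178 and -0.0182 to 0.4927 (crosses).

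Of single-member values, 359 of 391 under other settings and 741 of 812 without single libraries kept direction and call. Depth limits the paternal share most where a library has few reads, as for Mirg, and leaves Rtl1 unread.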
